A study of Mus musculus with 4 samples.

Results

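The integrins and laminins are the cell surface receptors for the extracellular matrix and the chains of a basement membrane protein that many of them bind. Members were taken by symbol, as integrin alpha or beta subunits and laminin chains in the matrices with at least 20 unique molecular identifiers (UMIs, each standing for 1 captured probe) summed over the series. Described here are 36 of 19465 genes, namely 18 alpha subunits, 8 beta subunits and 10 laminin chains, and their totals ran from 35 UMIs (Itgad) to 30276 UMIs (Itgb5). The choice used symbols and totals and no measured difference.

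Transcripts were counted with Visium, an array of barcoded spots under a tissue section, in 4 formalin-fixed mouse liver sections that the design text gives as 1 mouse each. The Hk2-deleted section came from a PDGFRBcreERT2/Hk2fl/fl mouse, in which tamoxifen switches on a Pdgfrb-driven Cre in the mesenchymal cells that use this promoter, and that mouse received CCl4. The 2 fibrotic sections, replicates 1 and 2, came from HK2fl/fl littermates without Cre given CCl4, and the healthy section came from an HK2fl/fl mouse given olive oil. All 4 mice, labelled male and 5 months old, thus carried the floxed Hk2 allele and had tamoxifen at 75 mg/kg on 5 days, followed by a wait of 2 weeks. CCl4, a hepatotoxin that injures the hepatocytes around the central vein, was given at 1 µL/g for 2 injections per week, over 6 weeks by the design text and over 4 or 6 weeks by the treatment protocol.

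Integrins are pairs of 1 alpha and 1 beta subunit that span the membrane, and the pair decides the ligand: collagens, laminins, proteins with an RGD motif such as fibronectin and latent TGF-beta, or counter-receptors on other cells. Laminins are trimers of an alpha, a beta and a gamma chain that assemble into basement membranes. In a healthy liver the sinusoids have no continuous basement membrane, while bile ducts and larger vessels do, and stellate cells, the vitamin A-storing pericytes that turn into myofibroblasts in fibrosis, use integrins to hold and to sense the matrix they lay down.

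The sections held 3865 spots (Hk2-deleted), 4134 and 2577 spots (fibrotic) and 3064 spots (healthy), with 40585039 to 67479047 UMIs per section and medians of 13665 to 15588 UMIs per spot. Levels below are normalised CPM, the UMIs of a gene scaled to a common total after TMM normalisation between sections. Hk2 itself measured 3.21 normalised CPM in Hk2-deleted liver, 4.34 and 4.02 in fibrotic livers and 2.22 in healthy liver, and the position of its probe relative to the deleted part is not given in the sources used here. Fibrotic replicate 1 stood apart from its male label: the Y-linked genes Ddx3y and Eif2s3y were at 0.369 and 0.515 normalised CPM there, against 43.1 to 62.9 and 58.0 to 83.9 in the other sections. Each comparison below is therefore also given without it, for some members or as a count, where a value or test could be had. All 4 sections shared 1710 spot barcodes, which are array positions and not cells. In spots and in sections, fewer cells of a type and less RNA per cell cannot be told apart. The hepatocyte marker Alb stood at 63200 normalised CPM in Hk2-deleted liver, 109000 and 103000 in fibrotic livers and 162000 in healthy liver, and no gene of the marker lists used below was at 0 in all sections. Because a probe set was counted, a level of one gene is not set against that of another.

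Fibrotic sections carried more transcripts of 13 of the 36 members than the healthy section, and none was called lower. The 13 were 9 integrin subunits (Itga8, Itgax, Itga2, Itgam, Itgb8, Itga6, Itgb2, Itga4 and Itgal) and 4 laminin chains (Lama2, Lamb1, Lamb2 and Lama5). The background was 9.64% of 14125 genes called higher and 4.01% called lower, and 31 of 36 members had a fold change above 0, with a median of 0.9 on the log2 scale against 0.004 over all genes. The limit for a call was 0.05 on the adjusted p (Benjamini-Hochberg) of edgeR's quasi-likelihood test, run on section totals. Itgb1, the beta chain that most of the matrix-binding alpha subunits share, was not called and differed by 0.02 ± 0.24 (SE).

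**Figure D1:**
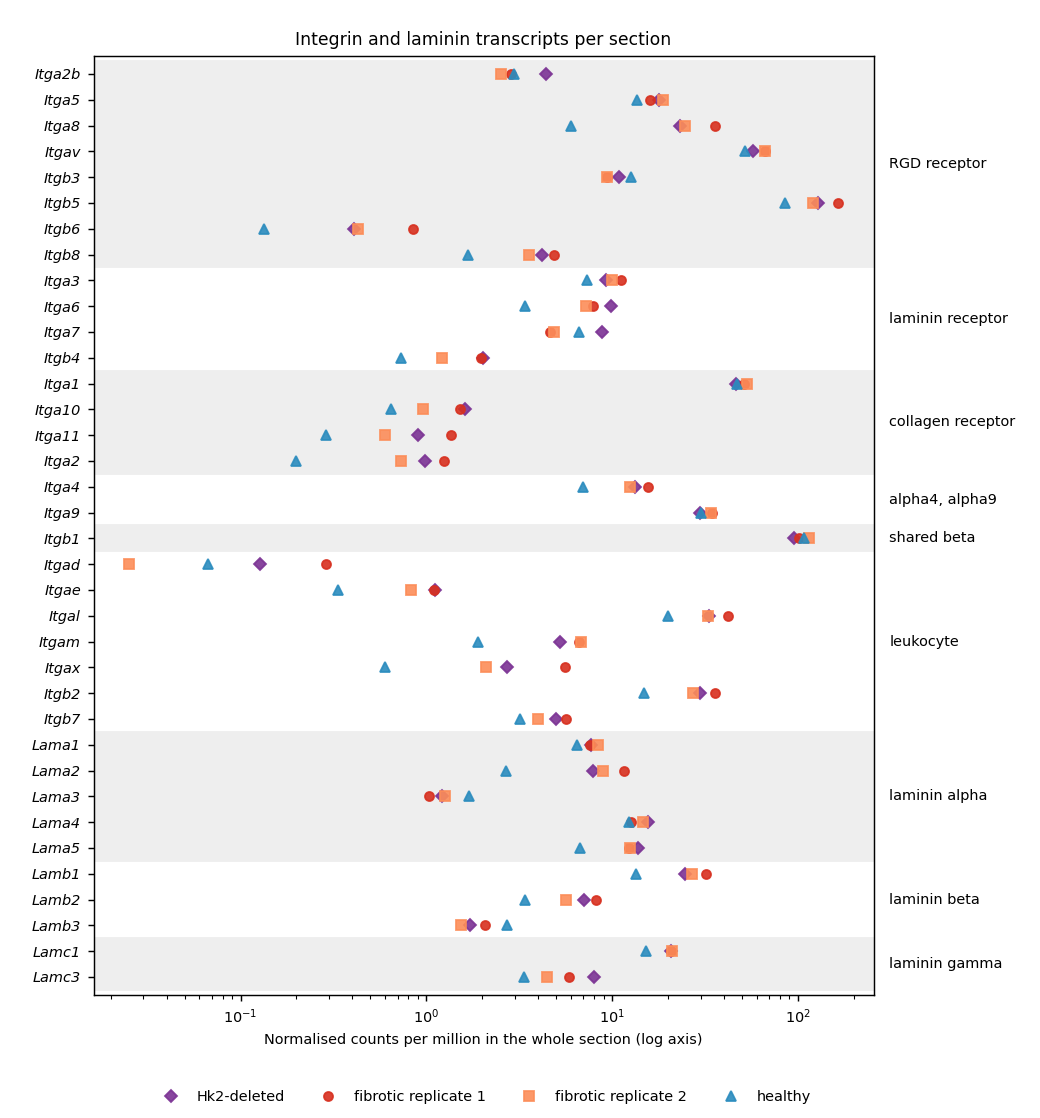
Level of each of the 36 members in each section, in normalised CPM on a log axis, grouped by the ligand class of the integrins and by laminin chain; each point is 1 section. The healthy section holds the lowest Itga8 (6.02) and Lama2 (2.69) values, while the 4 Itgb1 values lie between 95 and 115.

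Of the 8 RGD-binding subunits 2 were called, Itga8 and Itgb8. Itga8 pairs with Itgb1, binds fibronectin, nephronectin and tenascin, and is known from smooth muscle and other mesenchymal cells. Itga8 measured 23.1 normalised CPM in Hk2-deleted liver, 35.7 and 24.7 in fibrotic livers and 6.02 in healthy liver (95% exact Poisson interval 5.33 to 6.78, counting error only). Each of the 3 CCl4 sections lay far above the healthy one, and the fibrotic over healthy difference was 2.33 ± 0.24 on the log2 scale (adjusted p = 1.6e-06). Itgb8, which with Itgav binds and activates latent TGF-beta, rose by 1.34 ± 0.36 (adjusted p = 0.0161), with 4.21 normalised CPM in Hk2-deleted liver, 4.87 and 3.57 in fibrotic livers and 1.67 in healthy liver. The other 6 were not called, among them Itgb6, an epithelial Itgav partner, at 2.27 ± 0.83 (adjusted p = 0.0773). Itgb5, an Itgav partner, measured 128 normalised CPM in Hk2-deleted liver, 165 and 121 in fibrotic livers and 85.5 in healthy liver, a difference of 0.75 ± 0.27 (adjusted p = 0.0689). Itgav differed by 0.37 ± 0.21, and Itgb3, the beta chain of the platelet fibrinogen receptor, by -0.44 ± 0.21.

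Of the 7 subunits of leukocyte integrins, 4 rose: Itgam, Itgax and Itgal, alpha chains that pair with Itgb2, and Itgb2 itself. Itgam, the CD11b chain of neutrophils and monocytes, had 5.22 normalised CPM in Hk2-deleted liver, 6.64 and 6.81 in fibrotic livers and 1.89 in healthy liver, a rise of 1.83 ± 0.30 in fibrotic over healthy (adjusted p = 0.00035). Itgax, the CD11c chain of dendritic cells and some macrophages, had 2.72 in Hk2-deleted liver, 5.59 and 2.09 in fibrotic livers and 0.600 in healthy liver. Fibrotic replicate 1 held the highest Itgax value, and the difference of 2.69 ± 0.54 (adjusted p = 0.00209) stood at 1.79 without that section. Itgal, the LFA-1 alpha chain of lymphocytes, rose by 0.91 ± 0.21 and Itgb2 by 1.09 ± 0.20 (adjusted p = 0.00491 and 0.00112). Of the markers of these cells, all 9 neutrophil ones were called higher, and their summed level was 479 normalised CPM in Hk2-deleted liver, 535 and 1230 in fibrotic livers and 22.4 in healthy liver. Of 13 macrophage markers 9 were called higher and 1 lower, with sums of 1470 normalised CPM in Hk2-deleted liver, 1740 and 1450 in fibrotic livers and 1120 in healthy liver. Of 13 lymphocyte markers 3 were called higher and 1 lower, with sums of 74.4, then 80.7 and 59.4, and 49.0 in the same order of groups. The 3 higher ones were Ms4a1, Cd79a and Cd79b, and the lower one was Klrb1c (-1.35 ± 0.43). Cd3e (-0.02 ± 0.31), Cd3g (-0.06 ± 0.29) and Cd3d (0.22 ± 0.31) were among those not called. The part of all these cells in the leukocyte integrin values was not tested.

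Itgal, Itgam, Itgax and Itgad, the alpha chains that pair with Itgb2, lie together on mouse chromosome 7 in the RefSeq annotation of build GRCm38.p6, between base 127296139 (start of Itgal) and base 128205504 (end of Itgad). Itgad, the last of the group, had 9 UMIs in Hk2-deleted liver, 22 and 1 in fibrotic livers and 3 in healthy liver. These counts are too few to tell groups apart.

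The 4 laminin chains called higher were alpha and beta chains. Lama2, the alpha chain of the laminin of muscle and peripheral nerve basement membranes, had 7.86 normalised CPM in Hk2-deleted liver, 11.6 and 8.99 in fibrotic livers and 2.69 in healthy liver, a rise of 1.94 ± 0.27 in fibrotic over healthy (adjusted p = 5.2e-05). Lamb1, a beta chain found in many laminins, had 24.8 in Hk2-deleted liver, 31.9 and 26.9 in fibrotic livers and 13.5 in healthy liver, a rise of 1.13 ± 0.20 (adjusted p = 0.00055). The CCl4 sections did not overlap with the healthy one for either chain. The share of all genes without such overlap was not counted, here or for Itga8 above. Lamb2 rose by 1.03 ± 0.29 and Lama5, an alpha chain of epithelial and vascular basement membranes, by 0.90 ± 0.22. Neither Lamc3 nor Lamc1, the gamma chain of most laminins, was called, and Lamc1 stood at 20.9 normalised CPM in Hk2-deleted liver, 20.8 and 21.0 in fibrotic livers and 15.3 in healthy liver (0.45 ± 0.19, adjusted p = 0.114). Lama4, the alpha chain of endothelial basement membranes, differed by 0.14 ± 0.20. Lama3 (-0.56 ± 0.47) and Lamb3 (-0.59 ± 0.40), chains of epithelial basement membranes, had fold changes below 0 and were not called.

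Receptors for laminin and for collagen each had 1 called subunit of 4. Itga6, a laminin receptor of epithelia, endothelium and platelets, rose by 1.14 ± 0.25 (adjusted p = 0.00452), with 9.87 normalised CPM in Hk2-deleted liver, 7.86 and 7.24 in fibrotic livers and 3.42 in healthy liver. Itga2, a collagen receptor, rose by 2.32 ± 0.69 (adjusted p = 0.0296) at low levels, 0.986 in Hk2-deleted liver, 1.25 and 0.729 in fibrotic livers and 0.200 in healthy liver. The last value rests on 9 UMIs. Itga11, the collagen receptor of fibroblasts, had 0.901 in Hk2-deleted liver, 1.36 and 0.603 in fibrotic livers and 0.289 in healthy liver, and its difference of 1.79 ± 0.68 was not called (adjusted p = 0.0887). Itga4, a leukocyte receptor for VCAM1 and fibronectin, rose by 1.01 ± 0.23 (adjusted p = 0.00459), while the related Itga9 differed by 0.20 ± 0.19.

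**Figure D2:**
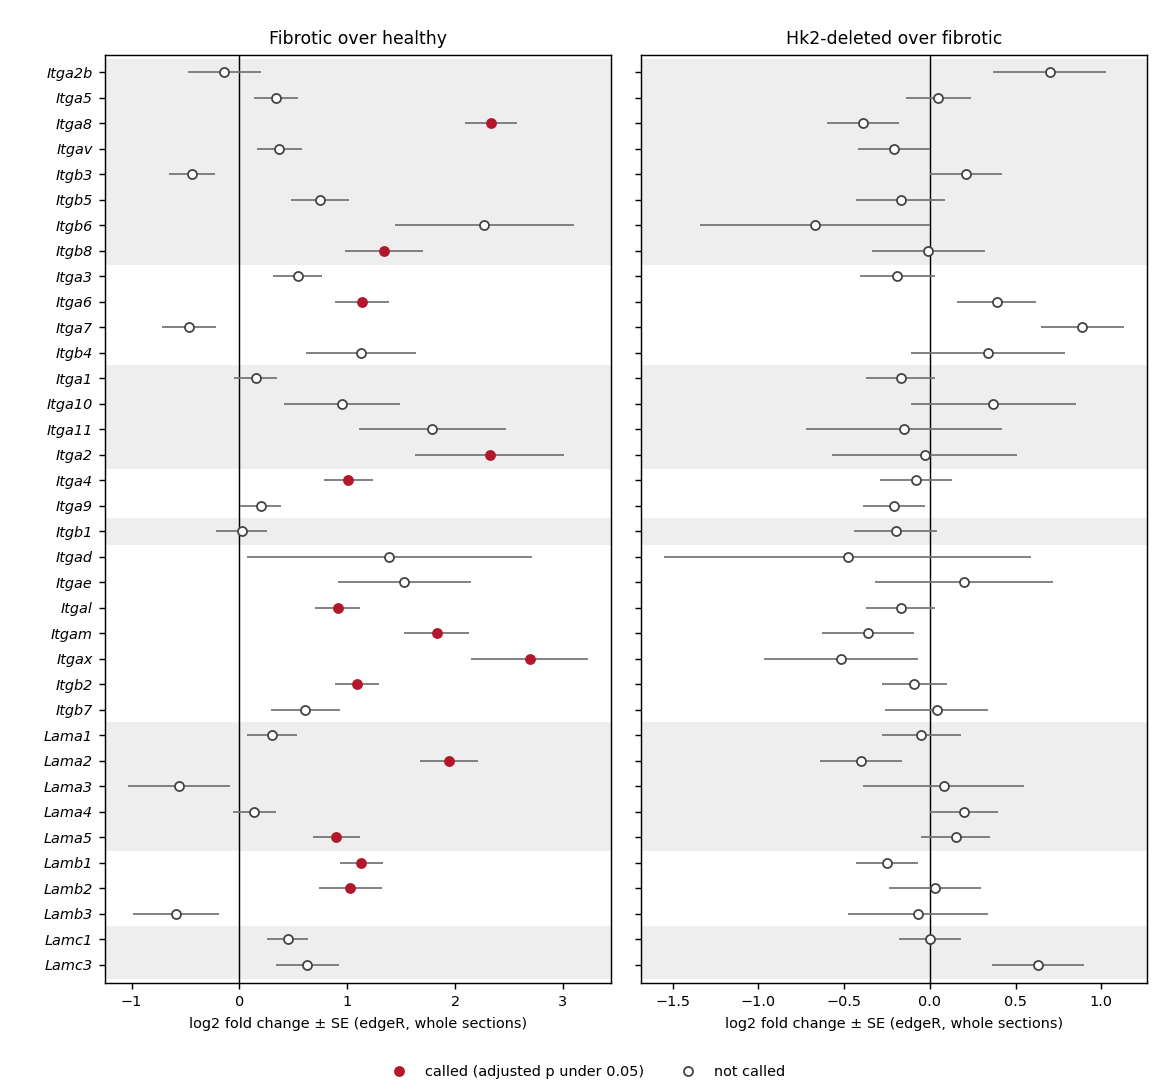
Log2 fold change ± SE of each member over whole sections, fibrotic over healthy on the left and Hk2-deleted over fibrotic on the right; filled points were called at an adjusted p under 0.05. On the left 13 points are filled, all above 0, and on the right none is.

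Residual spread came from the 2 fibrotic sections (1 residual degree of freedom), and the test carries it over to the single healthy and Hk2-deleted ones. The quasi-likelihood fit also draws the spread of each gene toward a trend over all genes. The p-values thus rest on spread shared across genes as well as on that between the 2 fibrotic sections. Of 12 stellate cell markers 6 were called higher, with sums of 638 normalised CPM in Hk2-deleted liver, 761 and 716 in fibrotic livers and 451 in healthy liver, and of 11 cholangiocyte markers 7 were called higher, with sums of 84.2, then 90.2 and 81.6, and 43.3 in the same order. Their part in the integrin and laminin values was not tested. When the CCl4 group was fibrotic replicate 2 plus Hk2-deleted liver, 12 members rose (all but Itga2), and with no TMM scaling 16 rose at an all-gene median of 0.34. DESeq2 called 9 of the 13 (not Itga2, Itgb8, Lama5 or Lamb2). With equal weight per spot 8 of the 13 were called (not Itga2, Itga4, Itga6, Lama5 or Lamb2), and Itgav and Itgb5 joined them. The members' median was then 0.34. Without fibrotic replicate 1, where no test was possible, that median was 0.57 against 0.9 with it. Itga8 then stood at 2.04, Lama2 at 1.74, Lamb2 at 0.73 and Itgal at 0.72, while Itgam stood at 1.85.

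The genes that members work with were read from 3 lists. Among 24 tested integrin ligands 13 rose in fibrotic livers and none fell, among them the tenascin gene Tnc (2.87 ± 0.30), Thbs2 (2.09 ± 0.27), the fibrillin gene Fbn1 (2.00 ± 0.23), Tgfb2 (1.72 ± 0.34), periostin, Postn (1.59 ± 0.20), and Tgfb3 (1.50 ± 0.34). Of 17 other basement membrane genes 10 rose and none fell, with Fbln1 (1.90 ± 0.49), Smoc2 (1.69 ± 0.28), Sparc (1.53 ± 0.30), the collagen IV chains Col4a2 (1.47 ± 0.23) and Col4a1 (1.42 ± 0.23), and Nid1 (1.23 ± 0.20), which links laminin to collagen IV. Of 23 cytoplasmic adhesion genes, by contrast, only the leukocyte parvin Parvg rose (1.23 ± 0.26) and only kindlin-2, Fermt2, fell (-0.77 ± 0.24). The list medians were 0.73 for ligands, 0.8 for basement membrane genes and 0.09 for adhesion genes, against 0.004 over all genes.

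Promoter sequence is shown for 4 members that rose in fibrotic livers and are described again in the spot comparisons. The RefSeq table for GRCm38.p6 held 26 promoter windows for 23 of the 36 members. The bases printed are those of the 250 upstream of the table's transcript start that also precede the annotated gene, 5′ to 3′ on the gene's strand: Itga8 at chr2:12301986-12302194 (minus strand), Lamb1 at chr12:31265043-31265145 (plus), Itgam at chr7:128062390-128062639 (plus) and Itgax at chr7:128129300-128129525 (plus). Capitals mark any match, on either strand, to TATAAA (known from core promoters), TGANTCA (an AP-1 site), GGAATG (a TEAD site) or GAGGAA (a PU.1 core).
Itga8: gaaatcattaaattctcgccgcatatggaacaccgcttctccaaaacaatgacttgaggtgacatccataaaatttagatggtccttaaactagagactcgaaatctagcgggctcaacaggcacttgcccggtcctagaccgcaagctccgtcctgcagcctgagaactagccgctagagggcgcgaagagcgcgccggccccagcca
Lamb1: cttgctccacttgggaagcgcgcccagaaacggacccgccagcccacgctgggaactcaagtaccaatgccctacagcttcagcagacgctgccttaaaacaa
Itgam: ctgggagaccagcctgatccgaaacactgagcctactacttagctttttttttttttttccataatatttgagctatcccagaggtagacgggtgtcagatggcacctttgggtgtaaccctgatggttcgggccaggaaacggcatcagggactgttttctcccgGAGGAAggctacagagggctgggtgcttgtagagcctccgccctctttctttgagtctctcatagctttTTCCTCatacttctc
Itgax: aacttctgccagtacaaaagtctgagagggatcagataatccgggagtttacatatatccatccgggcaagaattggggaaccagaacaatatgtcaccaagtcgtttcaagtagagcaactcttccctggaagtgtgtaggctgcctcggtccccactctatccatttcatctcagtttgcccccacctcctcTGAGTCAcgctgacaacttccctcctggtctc

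The printed Itgam bases held 2 PU.1 cores, those of Itgax 1 AP-1 site, and those of Itga8 and Lamb1 none of the 4 motifs. Over whole windows of 250 bases, GAGGAA was in 13 of 26 member windows and in 23.3% of 32851 windows in the table, TATAAA in 0 of 26 and 12.4%, TGANTCA in 1 of 26 and 6.75%, and GGAATG in 3 of 26 and 12.6%. A match is a run of letters and not evidence of binding, and several windows belong to the same gene.

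Deletion of Hk2 from Pdgfrb-expressing cells went with no called change in any of the 36 members over whole sections, the comparison the design makes between the Hk2-deleted section and the 2 fibrotic ones. Across all genes 0.142% were called higher and 0.085% lower, 20 and 12 of 14125, so few calls were there to be had. The members' median was -0.06 on the log2 scale, against -0.008 over all genes, and DESeq2 also called 0 members. An unadjusted p under 0.05 was reached by 3 members and by 443 genes.

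Those 3 were Itga7, Lamc3 and Itga2b. Itga7, a laminin receptor of muscle, had 8.82 normalised CPM in Hk2-deleted liver, 4.62 and 4.90 in fibrotic livers and 6.60 in healthy liver (0.89 ± 0.24, adjusted p = 0.27). Lamc3, a laminin gamma chain, had 8.04 in Hk2-deleted liver, 5.90 and 4.45 in fibrotic livers and 3.35 in healthy liver (0.63 ± 0.27). Itga2b, the platelet alpha chain, had 4.39 in Hk2-deleted liver, 2.86 and 2.54 in fibrotic livers and 2.98 in healthy liver (0.70 ± 0.33). For all 3 the Hk2-deleted value was the highest of the 4, and the share of all genes for which it was so was not counted. Of 7 platelet markers 1 was called higher, Ppbp, with 19.0 normalised CPM in Hk2-deleted liver against 9.62 and 8.54 in fibrotic livers, and its part in the Itga2b value was not tested.

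Of the members that rose with CCl4, Itga8 differed between Hk2-deleted and fibrotic livers by -0.39 ± 0.21, Lama2 by -0.40 ± 0.24, Itgam by -0.36 ± 0.27 and Lamb1 by -0.25 ± 0.18. Without fibrotic replicate 1, where no test was possible, these 4 stood at -0.09, -0.19, -0.38 and -0.12, and Itga7, Lamc3 and Itga2b at 0.85, 0.86 and 0.79. None of the 36 was called, and with 1 Hk2-deleted section a change of this size could not be detected. The 3 lists of ligands, basement membrane and adhesion genes had 0 called genes here. Both whole-section comparisons use the same 2 fibrotic sections.

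Across the liver lobule, 7 members were called higher around the central vein and 2 lower, and the rest were not called. Spots were ranked within each section by 8 pericentral against 12 periportal landmark genes, none of them a member, and cut into 3 zones of equal size. Pericentral and periportal zones were compared with section as a block. The 35 members tested were all but Itgad. The higher ones in the pericentral zone were Itga8, Lamb1, Itgax, Itgam, Itga4, Lama2 and Itga1. Lama4 and Itga7 were lower there. The backgrounds were 6.62% of 13072 genes called higher and 5.62% called lower, so the 2 lower members of 35 are near the background share, and the adjusted p of these 9 members ran from 0.0191 to 0.0471.

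Itga8 measured 34.8 normalised CPM in pericentral and 15.6 in periportal spots of Hk2-deleted liver, 46.9 and 22.9 in fibrotic replicate 1, 38.0 and 13.5 in fibrotic replicate 2, and 5.18 and 6.39 in healthy liver. The 3 CCl4 sections were thus higher on the pericentral side and the healthy one was not, and the common difference was 1.00 ± 0.21 on the log2 scale. Lamb1 followed the same order, with 33.5 and 17.3 in Hk2-deleted liver, 39.9 and 21.6 and then 36.6 and 16.4 in fibrotic livers, and 11.6 and 12.9 in healthy liver (0.77 ± 0.18).

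The other pericentral members differed less: Itgax by 0.75 ± 0.16, Itgam by 0.66 ± 0.15, Itga4 by 0.65 ± 0.13, Lama2 by 0.40 ± 0.10 and Itga1, a collagen receptor, by 0.27 ± 0.06. In healthy liver alone the log2 ratios were 0.32 for Itgax, -0.07 for Itgam, 0.08 for Itga4, 0.09 for Lama2 and 0.16 for Itga1. Lama4 was the reverse in every section, with 13.4 normalised CPM in pericentral and 17.6 in periportal spots of Hk2-deleted liver, 10.9 and 13.9 and then 9.60 and 17.2 in fibrotic livers, and 7.77 and 14.6 in healthy liver (-0.59 ± 0.12). Itga7 was also lower in the pericentral zone of all 4 sections, by -0.47 ± 0.12. In the same comparison all 9 neutrophil markers and 5 of 12 stellate markers were called higher in pericentral spots and 4 of 10 cholangiocyte markers lower. Of 8 mesothelial markers, which mark the liver surface, 4 were called higher, with a list median of 1.43. Their sums were 77.5 CPM in pericentral and 17.9 in periportal spots of Hk2-deleted liver, 44.6 and 19.8 and then 9.95 and 4.85 in fibrotic livers, and 8.68 and 7.64 in healthy liver. Surface spots were kept in the zones, and the part of these cell types was not tested. Of integrin ligands 5 were higher, led by Tnc (1.12 ± 0.16), and 5 lower, led by osteopontin, Spp1 (-1.11 ± 0.21). Of basement membrane genes 4 were higher and 3 lower, led by the netrin gene Ntn4 (-0.85 ± 0.09), and of adhesion genes the talin gene Tln2 was higher (0.54 ± 0.12).

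Without TMM scaling, where the all-gene median of the zone comparison moved to 0.21, 16 members were called higher and none lower, and Lama4 (-0.38, adjusted p = 0.0505) and Itga7 (-0.27) were no longer called. Without any one of the 3 CCl4 sections no member passed, whereas 13 were higher and 2 lower without the healthy section. Over all genes 235 to 322 were called without 1 CCl4 section, against 1600 of 13072 in the main comparison. Without the healthy section 2681 of 13045 genes were called higher and 2852 lower. The member counts thus moved with the number of calls over all genes and are not read as a result about the members.

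The zone difference itself differed between the CCl4 sections and the healthy section for 9 members, all of them more pericentral in the CCl4 sections than in healthy liver: Itga8, Lamb1, Itgb2, Lama1, Itgal, Itga9, Itga4, Itgav and Itgb5. The background was 8.5% of 13352 genes called higher and 10.6% called lower in this interaction test, and the median was 0.48 over the 35 members tested against 0.017 over all genes. Of the 9, Itga8 had the largest difference of ratios, 1.49 ± 0.26 (adjusted p = 0.00056). Lamb1 had 1.13 ± 0.17 (adjusted p = 0.00017), and its log2 ratios of pericentral to periportal spots were 0.95 in Hk2-deleted liver, 0.89 and 1.16 in fibrotic livers and -0.16 in healthy liver.

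Of 6 leukocyte subunits 2 were called, Itgb2 and Itgal, and of 8 RGD-binding subunits 3. The Itgb2 ratios were 0.49 in Hk2-deleted liver, 0.81 and 0.85 in fibrotic livers and -0.35 in healthy liver, a difference of 1.05 ± 0.18 (adjusted p = 0.00053). Its partner Itgal had 0.40, then 0.55 and 0.73, against -0.29 (0.83 ± 0.15). For both genes all CCl4 sections were above 0 and the healthy section was below it. Itgav (0.45 ± 0.10) and Itgb5 (0.36 ± 0.10), which form a latent TGF-beta-binding pair, and Itga9 (0.70 ± 0.13), a tenascin and VCAM1 receptor, were called as well. Lama1, the alpha chain of embryonic basement membranes, had ratios of 0.56 in Hk2-deleted liver, 0.34 and 0.76 in fibrotic livers and -0.40 in healthy liver (0.94 ± 0.26, adjusted p = 0.0177), and was not called in the other comparisons of all sections. Itgb1 ratios were 0.06 in Hk2-deleted liver, 0.04 and 0.03 in fibrotic livers and 0.02 in healthy liver, with a difference of 0.02 ± 0.09.

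**Figure D3:**
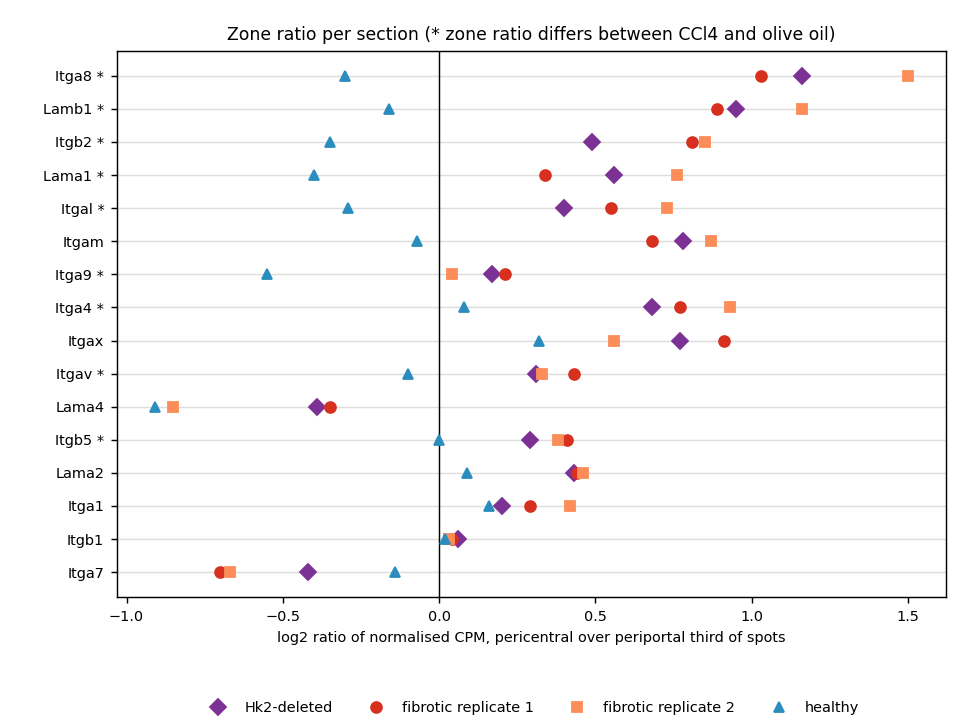
Log2 ratio of pericentral to periportal levels for 16 members, 1 point per section; an asterisk marks members whose ratio differed between CCl4 sections and the healthy section. For Itga8 the CCl4 sections sit at 1.03 to 1.50 and the healthy section at -0.30, while the 4 Itgb1 points lie between 0.02 and 0.06.

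Depth and cell markers differed between zones too. Median UMIs per spot were 13856.5 in the pericentral and 16112.5 in the periportal zone of Hk2-deleted liver, 17461.5 and 12479 and then 13376 and 13627 in fibrotic livers, and 11773 and 20245 in healthy liver. In the same interaction test 11 of 12 stellate markers and 6 of 13 macrophage markers were called higher, 1 macrophage marker was called lower, 6 of 10 cholangiocyte markers were called higher with a list median of 1.52, and none of 9 neutrophil markers was called. Without fibrotic replicate 1 all 9 were still called and Itgb3, Lama5 and Lamc3 joined them. Without collagen-rich spots 7 of the 9 members were still called (Itga4 and Itgb5 were not), and DESeq2 called 4 (Itga8, Itgal, Itgb2 and Lamb1). What the zones' cell makeup adds to these ratios was not tested.

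Of the integrin ligands 14 of 24 were more pericentral in the CCl4 sections and 3 less, the lower share being near the background, with Tgfb3 (2.74 ± 0.36), Cdh1, the ligand of the Itgae and Itgb7 pair (1.83 ± 0.17), Tgfb2 (1.77 ± 0.43), Thbs1 (1.54 ± 0.24), Thbs2 (1.30 ± 0.19) and the connective tissue growth factor gene Ccn2 (1.21 ± 0.22) foremost. Basement membrane genes had 5 of 17 higher and 2 lower, led by Smoc2 (1.05 ± 0.33) and Sparc (0.76 ± 0.11). Adhesion genes had 5 of 23 higher and 2 lower, led by the tensin gene Tns3 (1.12 ± 0.10) and the blood cell kindlin Fermt3 (1.05 ± 0.23), with Lims2 at -0.71 ± 0.09.

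Collagen-rich spots of the CCl4 sections, the 10% in which Col1a1, Col1a2 and Col3a1 together took the largest part of the UMIs, held more of 22 of 35 tested members than the other spots did. No member was called lower. The background in this comparison was 21.7% of 13493 genes called higher and 22.0% called lower, so a call alone is common here, and the median was 0.5 over members against 0.015 over all genes. The 22 were 16 of 25 integrin subunits and 6 of 10 laminin chains, and of the classes drawn in the plots only that of the shared Itgb1 had none. These spots lay mostly in the pericentral zone: 68.7% in Hk2-deleted liver and 73.4% and 81.0% in fibrotic livers, against 41.2% in healthy liver. All 12 stellate markers were called higher in them, with a median of 1.01 on the log2 scale, and their sums were 1490 CPM in collagen-rich and 611 in other spots of Hk2-deleted liver, 1480 and 775 in fibrotic replicate 1, and 1470 and 629 in fibrotic replicate 2. Their part in the members' values was not tested. Without fibrotic replicate 1, 20 of the 22 members were still called (Itgal and Itgb6 were not) and Itga2b was called too.

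Collagen receptors had 3 of 4 subunits called. Itga11 measured 3.19 normalised CPM in collagen-rich and 0.764 in other spots of Hk2-deleted liver, 3.69 and 1.27 in fibrotic replicate 1, and 2.97 and 0.416 in fibrotic replicate 2, a difference of 1.95 ± 0.30 (adjusted p = 0.00011). The collagen-rich spots held 35.9% of its UMIs in Hk2-deleted liver, 31.1% and 45.8% in fibrotic livers and 46.2% in healthy liver, although they held 8.65% to 11.2% of all UMIs. Itga2 (1.24 ± 0.29) and Itga1 (0.22 ± 0.07) were also called, Itga1 not without fibrotic replicate 2 (0.14, adjusted p = 0.191). Of the laminin receptors Itga3, which epithelia use (0.50 ± 0.11), and Itgb4, the hemidesmosome chain that pairs with Itga6 (1.02 ± 0.26), were called, and Itga6 (0.23 ± 0.12) and Itga7 (0.04 ± 0.19) were not. The Itgb4 log2 ratios were 1.26 in Hk2-deleted liver and 1.14 in fibrotic replicate 1. In fibrotic replicate 2 its ratio was -0.03, with 5 UMIs in the collagen-rich spots.

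Itga8 had 56.4 normalised CPM in collagen-rich and 23.0 in other spots of Hk2-deleted liver, 75.2 and 36.7 in fibrotic replicate 1, and 59.7 and 24.4 in fibrotic replicate 2. All 3 collagen-rich values exceeded all 3 values of other spots, and the difference was 1.19 ± 0.07 (adjusted p = 3.5e-08). The share of all genes with such a separation was not counted, here or for the members below. Of the other RGD-binding subunits, Itgb6 (1.30 ± 0.37), Itgb8 (0.69 ± 0.16), Itgb5 (0.48 ± 0.06) and Itgav (0.33 ± 0.06) were called, which makes 5 of 8 with Itga8. Itgb1 had 112 and 111 in Hk2-deleted liver, 127 and 119 and then 129 and 132 in fibrotic livers, a difference of 0.03 ± 0.06, which becomes 0.35 with library size alone, where the all-gene median was 0.34.

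Leukocyte integrins were higher in collagen-rich spots for 5 of 6 tested subunits. Itgam had 12.8 normalised CPM in collagen-rich and 5.20 in other spots of Hk2-deleted liver, 12.9 and 6.99 in fibrotic replicate 1, and 15.1 and 6.88 in fibrotic replicate 2 (1.09 ± 0.14). Itgb2 had 53.2 and 32.3 in Hk2-deleted liver, then 61.4 and 39.3, and 52.4 and 28.6 in fibrotic livers (0.73 ± 0.07). For both, collagen-rich and other spots did not overlap. Itgax (0.78 ± 0.18), Itgb7 (0.72 ± 0.16) and Itgal (0.26 ± 0.09) were called too, Itgal not without fibrotic replicate 2 (0.14, adjusted p = 0.23). All 9 neutrophil markers, 7 of 13 macrophage markers and 7 of 13 lymphocyte markers were called higher in the same spots, with 2 macrophage markers lower. The summed neutrophil level was 1500 CPM in collagen-rich and 418 in other spots of Hk2-deleted liver, 1120 and 536 in fibrotic replicate 1, and 2920 and 1040 in fibrotic replicate 2, and its part in these values was not tested. Itga4 was called as well (0.61 ± 0.09).

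Laminin chains of collagen-rich spots comprised Lama2, Lama5, Lamb1, Lamb2, Lamc1 and Lamc3. Lama2 had 15.4 normalised CPM in collagen-rich and 8.33 in other spots of Hk2-deleted liver, 23.6 and 12.1 in fibrotic replicate 1, and 21.3 and 8.93 in fibrotic replicate 2 (1.01 ± 0.11). Lamb1 had 44.4 and 26.8 in Hk2-deleted liver, then 55.6 and 34.7, and 44.5 and 28.9 in fibrotic livers (0.68 ± 0.07). Every collagen-rich value of Lama2 and of Lamb1 exceeded every value of the same chain in the other spots. Lama5 and Lamb2 differed by 0.71 ± 0.11 and 0.71 ± 0.13, Lamc3 by 0.95 ± 0.24 and Lamc1 by 0.39 ± 0.09. The Lamc3 log2 ratios were 1.64 in Hk2-deleted liver, 0.70 in fibrotic replicate 1 and -0.58 in fibrotic replicate 2. Without Hk2-deleted liver Lamc3 stood at 0.38 and was not called. Lama4 (-0.07 ± 0.10) and Lama1 (-0.29 ± 0.16) were not called. With library size alone Lama4 stood at 0.25, and Lama1 was called lower without fibrotic replicate 2 (-0.49, adjusted p = 0.0228).

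**Figure D4:**
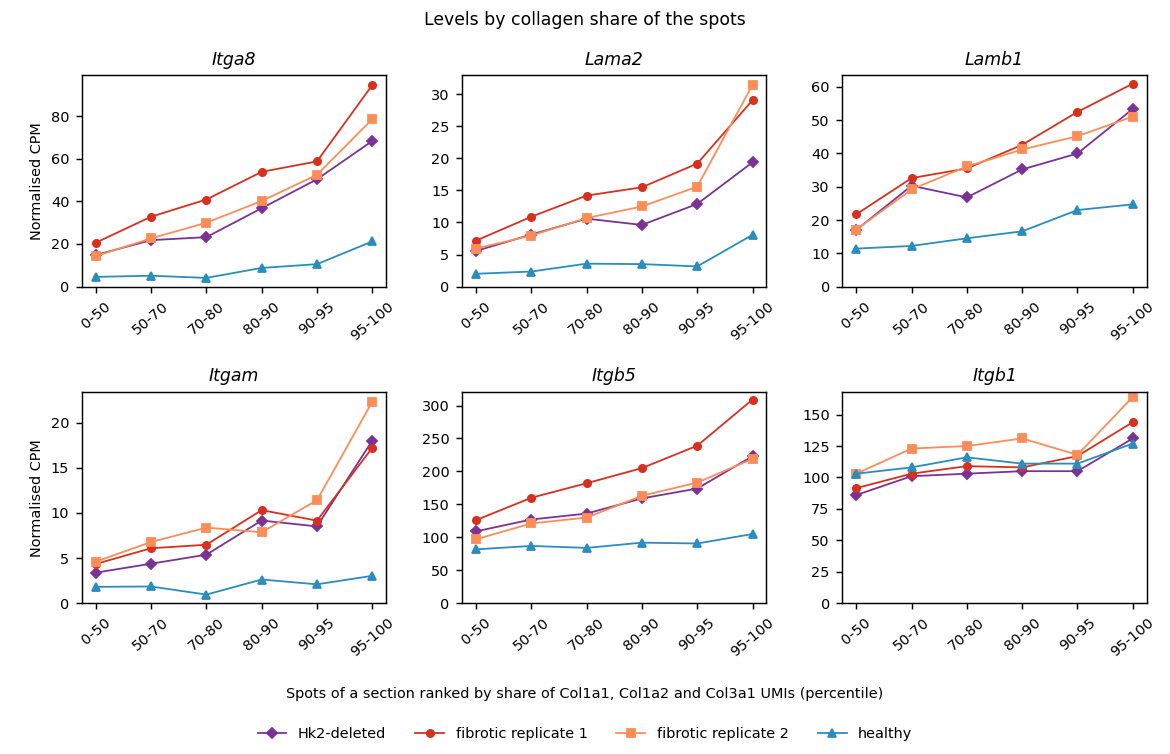
Normalised CPM of 6 members over spots binned by their collagen share, from the lowest 50% to the top 5% of each section, 1 line per section. Itga8 climbs to 68.4 (Hk2-deleted), 94.7 and 78.7 (fibrotic) and 21.2 (healthy) in the top bin, while Itgb1 reaches 131, 144 and 164, and 127.

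Each of the 6 plotted members was highest in the top 5% of spots in every section, and Itga8 and Itgb5 were also higher in the bin just below the 10% limit than in the lowest 50%. In healthy liver a collagen share of 0.0167% of UMIs put a spot in the top 10%, and the median share of its other spots was 0.0%. Tied spots were ordered by their place in the matrix, so the healthy bins rest on few collagen UMIs. In the top 5% of spots, against the lowest 50%, Itga8 was 4.61-fold higher in Hk2-deleted liver, 4.60-fold and 5.52-fold in fibrotic livers and 4.68-fold in healthy liver. Lama2 was 3.49-fold, 4.05-fold and 5.31-fold higher in the CCl4 sections in the same order, and 4.05-fold in healthy liver. Itgam was 5.33-fold, 3.97-fold and 4.85-fold higher in the CCl4 sections and 1.67-fold in healthy liver. These ratios use 1 scaling factor per section, and the median over genes with at least 100 UMIs was 1.37 in Hk2-deleted liver, 1.35 and 1.33 in fibrotic livers and 1.08 in healthy liver. By this measure 27 members lay above the all-gene median in all 3 CCl4 sections and 0 below it in all 3. The share of all genes that lay above it in all 3 was not counted, so the 27 have no background beside them.

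Spots next to a collagen-rich spot, but not collagen-rich themselves, were intermediate for some members. Against more distant spots Itga8 was 1.39-fold higher in Hk2-deleted liver, 1.38-fold and 1.49-fold in fibrotic livers and 1.22-fold in healthy liver, with all-gene medians of 1.02 to 1.07. Itgam was 2.34-fold, 1.30-fold and 1.57-fold higher in the CCl4 sections. In all 14 members lay above the all-gene median in each CCl4 section and 2 below it in each, and Itga11 was the 1 member above 1.5-fold in each. Here too the share of all genes was not counted.

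The collagen-rich spots held other structures as well. Spots at the liver surface, marked by the mesothelial genes Msln or Upk3b, made up 66.1% of them in Hk2-deleted liver, 49.2% and 2.33% in fibrotic livers and 12.4% in healthy liver. Duct spots, the 10% with the highest share of Krt7, Krt19 and Epcam UMIs, made up 28.0% of them in Hk2-deleted liver, 24.2% and 14.7% in fibrotic livers and 19.6% in healthy liver. Without both kinds of spots 15 of the 22 members were still called. Itga11 (2.15), Lama2 (1.22), Itga8 (1.15), Itgam (0.84), Itgb2 (0.73) and Lamb1 (0.60) stayed near their values, and Itga2, Itga3, Itgb4, Itgb6, Itgb7, Itgb8 and Lamc3 were no longer called. Itgb4 dropped to 0.02 and Lamc3 to 0.04.

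**Figure D5:**
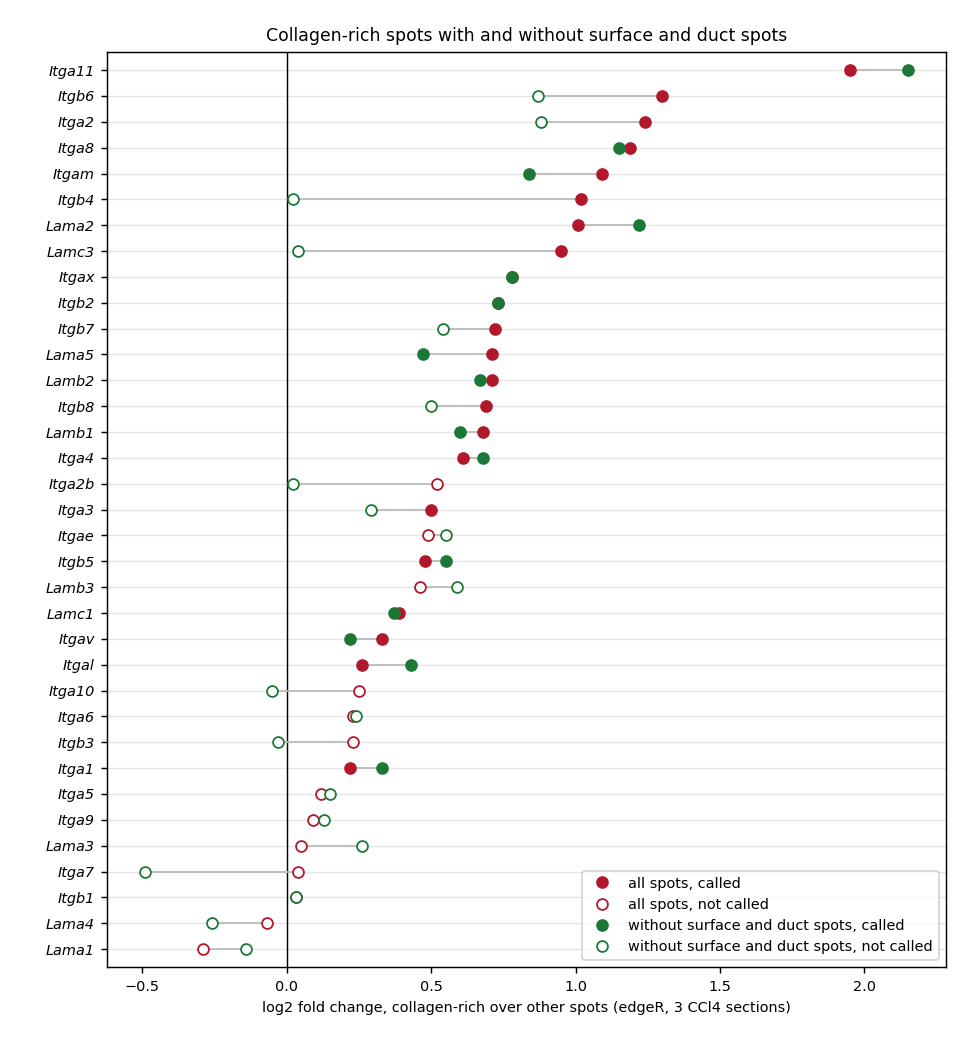
Log2 fold change of 35 members between collagen-rich and other spots of the CCl4 sections, with all spots and without surface and duct spots. Itga8 moves from 1.19 to 1.15 and Lama2 from 1.01 to 1.22, while Lamc3 moves from 0.95 to 0.04 and Itgb4 from 1.02 to 0.02.

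Of the 7 members lost in that way, 6 (all but Itgb7) were over 2-fold higher in duct spots, a set that could include surface spots. Itgb7 was also higher in duct spots of all 3 CCl4 sections, but not by over 1.5-fold in each. Compared with spots that were neither duct nor surface, 7 members were over 2-fold higher in duct spots of all 3 CCl4 sections: Itga2, Itga3, Itgb4, Itgb6, Itgb8, Lama5 and Lamc3. Lamc3 had 31.5 normalised CPM in duct and 4.94 in those other spots of Hk2-deleted liver, 17.3 and 4.04 in fibrotic replicate 1, 16.8 and 3.14 in fibrotic replicate 2, and 10.8 and 2.07 in healthy liver. Itgb4 was 4.87-fold, 3.76-fold and 2.99-fold higher in the CCl4 sections and 7.64-fold in healthy liver. Duct spots held 9.38% to 11.9% of all UMIs but 27.5% to 38.4% of those of Lamc3, and the median ratio over all genes was 1.02 to 1.14. In Hk2-deleted liver 386 duct, 1198 surface and 2494 other spots were drawn from 3865 spots, so duct and surface spots overlapped. Surface spots made up 31.0% of all spots there, 33.3% and 2.29% in fibrotic livers and 12.8% in healthy liver. The other spots held none, and the part of surface spots in the duct ratios was not tested. These are descriptions of single sections with no test, and the share of all genes over 2-fold was not counted.

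In the healthy section the 306 most collagen-rich spots held a median collagen share of 0.0226% of UMIs, against 0.2% to 0.347% in the CCl4 sections, so the label ranks spots within a section only. With 1 section the ratios of raw CPM carry exact 95% intervals for counting error and no test. Of the 36 members 15 had an interval above 1 and none lay below it. The share of all genes with such an interval was not counted, and raw CPM is not scaled to the all-gene level. Ratios near 1, such as those of Itgb1 (1.12, 1.02 to 1.24), Itgav (1.16, 1.01 to 1.33) and Itgb5 (1.16, 1.04 to 1.29), are thus not read as higher. Itga11 had 6 UMIs in the collagen-rich spots and 7 in all others, a ratio of 9.05 (2.51 to 31.5). Lamc3 had a ratio of 5.88 (4.13 to 8.28), Itga8 of 3.13 (2.32 to 4.18), Lama2 of 2.35 (1.41 to 3.75) and Lamb1 of 1.91 (1.52 to 2.39). The intervals of the leukocyte chains Itgam (1.41, 0.649 to 2.74) and Itgb2 (1.19, 0.913 to 1.53) spanned 1, and that of Itgb7 (1.72, 1.01 to 2.77) did not.

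Within collagen-rich spots the partner genes moved widely. Of integrin ligands 16 of 24 were higher and 5 lower, a lower share near that of all genes, with Tgfb3 (1.76 ± 0.15), Tgfb2 (1.45 ± 0.14), Thbs2 (1.34 ± 0.10), Tnc (1.29 ± 0.13), Thbs1 (1.20 ± 0.07) and Vwf (1.13 ± 0.17) highest. The 5 lower ones, Fgg (-0.86 ± 0.06), Fga (-0.84 ± 0.06), Fgb (-0.83 ± 0.07), Vtn (-0.69 ± 0.06) and Fn1 (-0.29 ± 0.06), encode plasma proteins that hepatocytes secrete and are named after their values were seen. All 7 hepatocyte markers, of which Fgb is 1, were called lower in the same spots. Of 17 basement membrane genes 11 were higher and 3 lower, with Smoc2 (1.77 ± 0.10), Fbln1 (1.55 ± 0.19) and Egflam (1.40 ± 0.22) at one end and Smoc1 (-0.61 ± 0.06) at the other. Of 23 adhesion genes 15 were higher and 1 lower, from Tns3 (1.03 ± 0.07) and the filamin gene Flna (0.98 ± 0.08) to Lims2 (-0.56 ± 0.06).

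The contrast between collagen-rich and other spots differed with Hk2 deletion for 1 of 36 members, Lamc3, against a background of 1.09% of 13954 genes called higher in this interaction test. Lamc3 had 23.4 normalised CPM in collagen-rich and 7.5 in other spots of Hk2-deleted liver, 10.4 and 6.39 in fibrotic replicate 1, and 3.50 and 5.27 in fibrotic replicate 2. Its log2 ratio was thus 1.64 in Hk2-deleted liver, and the 2 fibrotic sections, at 0.70 and -0.59, lay on opposite sides of 0. The difference was 1.26 ± 0.26 (adjusted p = 0.00056) and rested on 169 UMIs in the collagen-rich spots of Hk2-deleted liver against 90 and 13 in those of the fibrotic sections. It was no longer called without surface spots (0.12, adjusted p = 0.991), without duct spots (0.55, adjusted p = 0.984) or with the top 20% of spots (0.62, adjusted p = 0.41), and stood at 2.23 without fibrotic replicate 1 and at 0.90 without fibrotic replicate 2, where no test was possible. Mesothelial markers in collagen-rich spots summed to 214 CPM in Hk2-deleted liver and 97.1 and 17.6 in fibrotic livers.

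The other members showed ratios in Hk2-deleted liver that were not called different. The interaction was 0.16 ± 0.14 for Itga8, -0.19 ± 0.23 for Lama2, 0.07 ± 0.15 for Lamb1, 0.31 ± 0.27 for Itgam and -0.03 ± 0.10 for Itgb1. Among partner genes Flna (0.45 ± 0.11), Sparc (0.48 ± 0.11), Col4a1 (0.43 ± 0.10), Tgfb3 (0.84 ± 0.22) and Thbs2 (0.50 ± 0.13) were called higher and none lower. Markers called higher were 4 of 8 mesothelial, 5 of 9 neutrophil, 3 of 12 stellate, 2 of 7 platelet and 2 of 11 cholangiocyte ones. Of 13 macrophage markers 2 were called lower. Over all genes 175 were called, and 27 without surface spots. The part of these cell types and of surface spots in the partner genes' values was not tested. With 1 Hk2-deleted section, the deletion and the section cannot be told apart.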

How the data were processed

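The members, the gene lists and the tests were chosen with earlier results of these data known. What the authors deposited are matrices of UMI counts by gene and by spot, made with Space Ranger 2.0.0 per the file headers; the submitters' processing notes name mm10. The sources used here do not name the probe set. A second kind of deposited file, per the file headers, lists Moran's I, a spatial score for each gene, and serves the closing section alone.

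Counts were summed over spots, since spots are not replicates, and tested over all genes with edgeR 4.0.16 (R 4.3.3): TMM factors, genes kept by filterByExpr, then the quasi-likelihood test with Benjamini-Hochberg adjustment and a limit of 0.05. The script was checked on simulated data. SE is the size of the log2 fold change divided by the square root of the F statistic. Residual degrees of freedom were 1 for whole sections, 3 for zones, 2 for zones by CCl4, 2 for collagen-rich spots and 1 for collagen-rich spots by Hk2 deletion. No test or interval covers more than these 4 sections, and the UMI counts limit precision for members with few UMIs.

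The zone score of a spot was the mean z of log2(CPM + 1) over 8 pericentral landmarks minus that over 12 periportal landmarks, split into 3 equal parts per section. Surface spots held, or lay next to a spot with, a UMI of Msln or Upk3b. Levels of spot sets in the tested comparisons use a TMM factor per spot set, while the collagen bins, neighbouring spots and duct spots use the section's own factor, and marker sums over spot sets are raw CPM. By the naming rule any member may be named, every called one is, and of each partner list up to 6 called genes with the largest change are; uncalled members of low level were named to complete a ligand class.

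Alternatives were RLE size factors, DESeq2 1.42.0, no filter, equal weight per spot with limma 3.58.1, other groupings of CCl4 sections, other zone and collagen limits, leaving out surface, duct or collagen-rich spots, and leaving out sections. Library size alone, surface and duct spots left out together, and collagen-rich spots within the pericentral zone were added after the data were seen. Images were not used here. Of the genes that met the rule, 1 is not reported here and is in none of the member counts.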

Additional observations from a re-analysis of the deposited data

Results flagged for a closer look

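For 9 members the pericentral to periportal difference differed between the CCl4 sections and the healthy section by a test of the interaction itself. On the log2 scale these differences of differences were 1.49 for Itga8, 1.13 for Lamb1, 1.05 for Itgb2, 0.94 for Lama1, 0.83 for Itgal, 0.70 for Itga9, 0.69 for Itga4, 0.45 for Itgav and 0.36 for Itgb5. The single olive oil section gives all of the healthy side, so its own spread is not measured, and section and treatment cannot be told apart.

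For Lamc3 the difference between collagen-rich and other spots differed between the Hk2-deleted section and the fibrotic sections by 1.26, again by a test of the interaction. The 2 fibrotic sections themselves lay apart, with log2 ratios of 0.70 and -0.59, and surface spots made up 66.1% of the collagen-rich spots in Hk2-deleted liver against 49.2% and 2.33% in fibrotic livers. The part of these spots in the Lamc3 difference is given above, and no cause was tested further.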

How the results depend on the processing

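Of 92 counts of called members recomputed under an alternative, 74 stayed within 1.5 times the value reported. For pericentral against periportal spots the higher count was 3 with DESeq2 and 16 with library size alone and the lower count 1 with spots split at the middle of the score and 0 with library size alone, and leaving out 1 section gave 0 to 13 higher and 0 to 2 lower. The zone difference by CCl4 had 4 members with DESeq2. Collagen-rich spots had, leaving out 1 section, 0 to 1 lower. The Lamc3 interaction gave 2 members with the top 5% of spots (Itgb3 joined it), and 0 with the top 20%, without surface spots, without duct spots and with DESeq2, which gave Lamc3 no adjusted p. For single members, 1660 values stayed on their side of the threshold or within the spread, 91 were no longer called, 55 became called, 30 moved, and no called value turned direction. Over all genes, fibrotic against healthy had 1929 calls, 1034 with DESeq2 and 1187 with equal weight per spot; Hk2-deleted against fibrotic had 32, 21 with DESeq2 and 126 without the filter; the zone comparison had 1600, 4788 with library size alone, 5533 without healthy liver and 235 to 322 without 1 CCl4 section; the zone difference by CCl4 had 2556 and 877 with DESeq2; collagen-rich spots had 5892 and 3926 within the pericentral zone; the collagen-rich contrast by Hk2 had 175, against 7 with DESeq2, 27 without surface spots, 25 without duct spots and 68 with the top 20%. With library size alone the higher and lower calls were 1877 and 206 (1362 and 567 with TMM) for fibrotic against healthy, 4410 and 378 (866 and 734) for zones, 1667 and 577 (1135 and 1421) for zones by CCl4, and 7410 and 682 (2929 and 2963) for collagen-rich spots. Apart from surface and duct spots, where fewer spots were compared, the cause was not tested. No pairing of mice between groups was possible because each section came from its own mouse by the design text. Spot sets of 1 section were compared with the section as a block. Depth limits Itgad, Itgb6, Itga2 and Itga11 most, and leaving out a fibrotic section over whole sections leaves values with no test.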

Other observations

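Moran's I scores how alike neighbouring spots are, and the percentiles here rank genes within a section of the authors' deposited table. In the authors' deposited table Lamc3 had 0.074 (percentile 96.7) in Hk2-deleted liver, 0.028 and 0.054 (91.6 and 97) in fibrotic livers and 0.054 (96.3) in healthy liver. Itgb5 had, in the authors' deposited table, 0.049 (percentile 94.9) in Hk2-deleted liver and 0.059 and 0.043 (96.9 and 96.0) in fibrotic livers, against -0.002 (20.6) in healthy liver. Itgb2 had 0.028 (89.7) in Hk2-deleted liver and 0.038 and 0.038 (94.5 and 95.3) in fibrotic livers, against -0.006 (5.04) in healthy liver of the authors' deposited table. Itga8 was high in all 4 by the authors' deposited table, with 0.031 (90.9) in Hk2-deleted liver, 0.058 and 0.051 (96.8 and 96.8) in fibrotic livers and 0.017 (85.7) in healthy liver. These scores were not tested, and they move with a gene's depth.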
